A study of Mus musculus with 28 samples.

Results

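The nuclear-encoded subunits of oxidative phosphorylation were examined in liver and muscle of obese mice given aspirin and trimetazidine together or solvent alone. The members were the protein-coding genes whose symbols begin with Nduf and a, b, c, s or v and a digit, Uqcr, Cox and a digit from 4 to 8, or Atp5, with Cyc1 and Sdha, Sdhb, Sdhc and Sdhd. The rule took 84 genes of the 54163 in the liver table, 54189 in the muscle table and 54501 in the 24 h table. Of these, 37 fell to complex I, 4 to complex II, 9 to complex III, 18 to complex IV and 16 to complex V. By textbook role, 21 were core subunits, which carry the electrons, bind the substrates or drive the rotor, 53 were accessory subunits and 7 were tissue-restricted isoforms. The other 3 share a name with subunits without being shared subunits: Cox7a2l, a factor of respiratory supercomplexes, Ndufa4l2, a paralogue of Ndufa4, and Atp5s, an assembly-related protein. Ndufa4 was counted in complex I by its symbol, although its protein is a subunit of complex IV. Uqcrc1 and Uqcrc2, named core proteins of complex III, were counted among the accessory subunits.

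All mice were male Lepob/Lepob C57BL/6J animals, which lack functional leptin. From 4 weeks of age they ate the AMLN diet, with 40% of its calories from fat (18.5% trans-fat), 20% from fructose, and 2% cholesterol by weight, for 20 weeks as a model of steatohepatitis, vehicle mice included. Aspirin (acetylsalicylate, 3.0 mg/kg) and trimetazidine (5.0 mg/kg), an anti-anginal drug, were then given each day by intraperitoneal injection, and vehicle mice received the solvent. Liver and muscle of 6 vehicle and 6 treated mice were taken after 40 days, and 1 library a group and tissue after 24 h. The design asks whether the combination improves metabolic disease. The vehicle mice carry the label numbers 2_1, 2_3, 2_4, 2_5, 3_2 and 6_1 and the treated mice 4_5 and 5_1 to 5_5, so what goes with the first digit cannot be told apart from the treatment. The labels do not say which muscle was taken, and p-values measure the spread between these mice.

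Oxidative phosphorylation is the last step of cellular respiration. Complexes I and II pass electrons from NADH and succinate to ubiquinone, complex III passes them to cytochrome c, complex IV passes them to oxygen, and complex V uses the resulting proton gradient to make ATP. All but a few of the subunits are encoded in the nucleus, and the remainder on mitochondrial DNA. Oxidative muscle fibres and hepatocytes are rich in mitochondria, and muscle replaces several subunits of complex IV by isoforms of its own.

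The isoform pairs carry the clearest difference between the tissues, so the sequence before the start of the genes is shown for Cox7a2 and Cox7a1 and for Cox8a and Cox8b, in each case the widely expressed isoform first. Sdha and Sdhd are shown for complex II, whose members were all lower in treated mice of both tissues. Sequences are from RefSeq on GRCm38.p6, in which 66 of the 84 symbols matched, and run 5′ to 3′ on the gene's strand for 180 bases, ending before the annotated start of the gene. Capitals mark matches on either strand to 5 motifs searched: GCGCANGC for NRF1, CCGGAAG for ETS factors, AAGATGGC for YY1, AAGGTCA for ERR and CAGCTG, an E-box. The regions are chr9:79759879-79760058 for Cox7a2 (minus strand), chr7:30183964-30184143 for Cox7a1 (plus), chr19:7217617-7217796 for Cox8a (minus), chr7:140900447-140900626 for Cox8b (minus), chr13:74350281-74350460 for Sdha (minus) and chr9:50603850-50604029 for Sdhd (minus).
Cox7a2: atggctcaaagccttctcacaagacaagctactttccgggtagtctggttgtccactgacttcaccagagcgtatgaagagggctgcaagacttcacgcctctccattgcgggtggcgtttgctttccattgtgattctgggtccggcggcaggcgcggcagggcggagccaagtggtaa
Cox7a1: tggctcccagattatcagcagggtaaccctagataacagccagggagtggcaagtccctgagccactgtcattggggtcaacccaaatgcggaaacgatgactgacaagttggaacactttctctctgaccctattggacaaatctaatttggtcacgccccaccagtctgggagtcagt
Cox8a: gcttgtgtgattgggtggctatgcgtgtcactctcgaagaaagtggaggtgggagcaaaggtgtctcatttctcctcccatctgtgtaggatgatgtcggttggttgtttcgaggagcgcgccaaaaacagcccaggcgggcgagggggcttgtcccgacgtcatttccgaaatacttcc
Cox8b: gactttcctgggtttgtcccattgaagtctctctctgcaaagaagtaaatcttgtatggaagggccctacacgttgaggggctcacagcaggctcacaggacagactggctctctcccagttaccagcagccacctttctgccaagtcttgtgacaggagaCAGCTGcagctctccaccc
Sdha: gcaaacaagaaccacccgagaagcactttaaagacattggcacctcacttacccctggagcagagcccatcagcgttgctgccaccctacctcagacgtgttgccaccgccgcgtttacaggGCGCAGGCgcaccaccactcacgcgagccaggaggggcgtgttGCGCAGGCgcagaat
Sdhd: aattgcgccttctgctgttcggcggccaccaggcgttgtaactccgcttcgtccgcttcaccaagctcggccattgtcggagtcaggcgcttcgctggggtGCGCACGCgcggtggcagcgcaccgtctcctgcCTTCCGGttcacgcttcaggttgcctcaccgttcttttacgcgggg

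The stretches of Cox7a2 and Cox8a held 10 and 11 CpG dinucleotides, and those of the muscle isoforms Cox7a1 and Cox8b held 3 and 1. Low counts also occurred in members expressed in both tissues. In the 250 bases before the start, Ndufc2 held 4, Cox7b 5 and Uqcr10 5, and Cox7a1 held 4. Over the 250 bases before the start, the NRF1 motif was found in 17 of 66 members (25.8%) and in 8.42% of 27018 RefSeq genes. It was present in all 3 complex II members that matched (Sdha, Sdhb and Sdhd), in 5 of 13 of complex V, in 8 of 32 of complex I, in 1 of 13 of complex IV and in 0 of 5 of complex III. The ETS motif was found in 11 members (16.7%, against 7.05% of all genes), the ERR motif in 5 (7.58%, against 4.05%), the E-box in 6 (9.09%, against 12.8%) and the YY1 motif in 0 (against 1.59%). The members matched held a median of 14 CpG dinucleotides in these bases and 55.6% G and C, against 6 and 52% over all genes. The NRF1 and ETS motifs each contain a CpG, and the part of base composition in these shares was not tested. No motif contains another, and a match is a description of these letters only.

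Levels were high in both tissues. They are given as FPKM (fragments per kilobase of transcript, scaled per library as deposited), which allows genes to be compared per length. The library totals implied by these values and the reads recovered from them were not equal to the reads assigned to genes. In muscle of vehicle mouse 6_1 and in the 24 h treated liver, for example, the implied total was the lower one. The members together made up 1.65% to 2.47% of the summed FPKM of a liver library at 40 days and 3.03% to 4.73% of a muscle library, with 16.8 to 18.9 M reads assigned to genes for each liver and 16.1 to 19.9 M for each muscle. In vehicle liver the highest means were those of Cox6a1 (622 FPKM ± 108, SD, n = 6), Cox8a, Cox4i1 (404 ± 38.5) and Atp5b (351 ± 26.6). In vehicle muscle they were Cox6a2 (1151), Atp5b (755 ± 146), Cox8b (684) and Cox4i1 (488 ± 141). Cox6a1 and Cox8a, and their muscle counterparts Cox6a2 and Cox8b, are small subunits of complex IV, Cox4i1 is its largest nuclear subunit, and Atp5b is the catalytic subunit of ATP synthase.

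Several subunits that belong to the same complexes were listed far below their partners. Atp5a1, the partner of Atp5b in the catalytic head, had 9.14 FPKM in vehicle liver and 19.0 in muscle. Uqcrc1, a core protein of complex III, had 2.38 and 5.79, and Ndufb2, an accessory subunit of complex I, had 1.47 and 2.71. Ndufs3, a core subunit of complex I, was listed at 0 in all 12 livers and at no more than 0.03 FPKM in muscle. A gene model on an alternate contig of the same region, described as of the NADH dehydrogenase 30 kDa family to which Ndufs3 belongs, had 7.75 FPKM ± 10.2 in vehicle liver and 15.6 ± 10.4 in vehicle muscle (SD, n = 6). The cause of these low values was not tested. Within 11 members, over 10% of the exon length is shared with another gene on the same or the other strand. The largest shares on the other strand are those of Ndufb6 (39.0%), Atp5o (35.6%) and Ndufa13 (30.0%). On the same strand the largest are those of Ndufb9 (19.5%) and Atp5o (12.3%). How the counting dealt with strand was not given in the sources used here. Values of these 11 are uncertain to that extent, Uqcrc2 (19.7%), Cox6a2 (10.3%) and Cox5a (12.8%) among them.

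After 40 days none of the 77 members tested in liver changed by the test, and most differences were small and negative. The remaining members of the 84, Ndufs3 among them, were too low to be tested. Of 77 members that reached 1 FPKM in at least 6 of 12 livers, 61 had a lower mean in treated mice and 16 a higher one, with a median log2 fold change of −0.07 on the log2(FPKM + 1) scale. All 10995 genes tested had a median of −0.0033 and 51% were negative. With limma and Benjamini-Hochberg adjustment over all genes, 0 members passed an adjusted p of 0.05, where 0.255% of all genes did, and the same count was obtained with limma voom on the reads recovered from the values. At an unadjusted p under 0.05 there were 5 members, 4 lower and 1 higher (7 with voom), and this share was below that of all genes, 13.2%. No member had groups that did not overlap, against 1.16% of all genes. In bulk tissue, fewer cells of a type and less RNA per cell cannot be told apart.

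**Figure D1:**
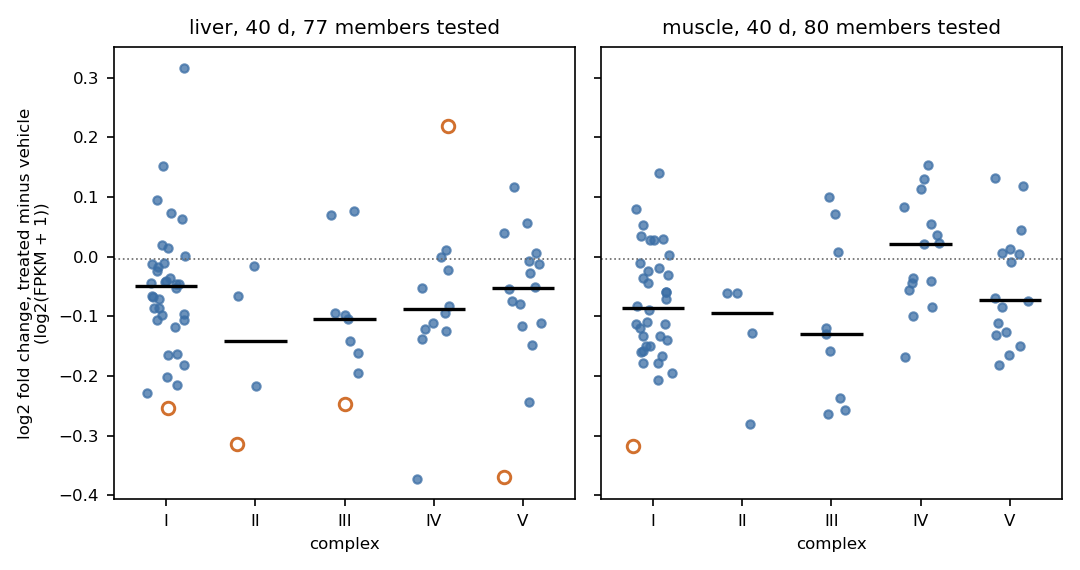
Log2 fold change at 40 d, treated minus vehicle, of each member tested in liver (left) and muscle (right), by complex. Each point is a gene, open orange circles have an unadjusted limma p under 0.05, black bars are medians of the complex and the dotted line is the median of all genes tested. Most points lie between −0.2 and 0.1, and complex IV of muscle is the only set with a median above 0 (0.02).

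Complex I, the NADH dehydrogenase, had 28 of 36 members lower in treated liver, with a median of −0.05. Ndufs1, its largest iron-sulfur subunit, had the smallest p of all members. Its level ran from 14.5 to 16.9 FPKM (median 15.3) in vehicle livers and from 9.76 to 15.1 (median 12.8) in treated livers. The groups overlapped only through treated mouse 5_2, with 15.1 FPKM. The log2 fold change was −0.25 ± 0.09 (SE) and did not pass (limma adjusted p = 0.251). Ndufa10, an accessory subunit, differed by −0.18 ± 0.10, and Ndufv1, which binds NADH and FMN, by −0.21 ± 0.13 (limma adjusted p = 0.453 and 0.509). The highest value of the complex was that of the accessory subunit Ndufa12, 0.32 ± 0.24 (limma adjusted p = 0.590).

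Complex II, succinate dehydrogenase, which also serves the citric acid cycle, had all 4 subunits lower, with a median of −0.14. Sdha, the flavoprotein that oxidises succinate, had 111 to 151 FPKM (median 132) in vehicle livers and 76.6 to 131 (median 107) in treated livers. The lower end was set by treated mice 5_5, 5_3 and 4_5, the only livers under 111 FPKM. Its log2 fold change was −0.31 ± 0.13 (limma adjusted p = 0.335). Sdhb, the iron-sulfur subunit, differed by −0.22 ± 0.14 (limma adjusted p = 0.534), and treated mouse 5_5 had 55.8 FPKM where the other treated livers had 88.5 to 101. The membrane anchors Sdhc and Sdhd differed by −0.02 ± 0.08 and −0.07 ± 0.12.

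Complex III, the cytochrome bc1 complex, had 7 of 9 members lower, with a median of −0.10. Uqcrc2, a core protein by name that was counted as accessory, had 89.4 to 102.6 FPKM (median 95.6) in vehicle livers. In treated livers it ran from 64.9 to 93.9 (median 81.7). Of the 6 treated livers, 4 lay below every vehicle liver, and 5_2 and 5_4 lay within the vehicle range. The log2 fold change of −0.25 ± 0.09 did not pass (limma adjusted p = 0.274). Cyc1, cytochrome c1, differed by −0.14 ± 0.14 and Uqcrfs1, the Rieske iron-sulfur protein, by −0.10 ± 0.11. Without treated mice 4_5 and 5_5 the value of Cyc1 became 0.039.

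Complex IV, cytochrome c oxidase, had 10 of 12 tested members lower, with a median of −0.09. Cox4i1 and Cox5b differed by 0.01 ± 0.11 and −0.09 ± 0.20, and Ndufa4, counted by its symbol elsewhere, by −0.10 ± 0.11. Cox7a2l, the supercomplex factor, was the only member with an unadjusted p under 0.05 and a higher mean. It had 104 to 123 FPKM (median 113) in vehicle livers and 123 to 153 (median 129) in treated livers. All treated livers but 5_2, with 122.9 FPKM, lay above the highest vehicle liver, with 123.1. The log2 fold change was 0.22 ± 0.08 (limma adjusted p = 0.257), opposite in sign to the median of the members.

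Cox7a1, the isoform of a small complex IV subunit that is typical of muscle and brown fat, had a low level in liver. The gene lies at chr7:30184144-30186078. In vehicle livers it had 3.84 FPKM in mouse 2_1, 6.12 in 2_3, 4.95 in 2_4, 5.18 in 2_5, 5.63 in 3_2 and 5.28 in 6_1, from 38 to 55 reads. In treated livers it had 2.37 in 4_5, 3.57 in 5_1, 12.2 in 5_2, 3.04 in 5_3, 3.02 in 5_4 and 2.40 in 5_5, from 24 to 36 reads in all but 5_2, which had 123. Thus 5 of the 6 treated livers lay below every vehicle liver, and the remaining one lay far above them. Over all 12 livers the log2 fold change was −0.37 ± 0.28 (limma adjusted p = 0.586). Without treated mouse 5_2 it was −0.67 and passed (limma adjusted p = 0.0174), the only one of the 12 single omissions that gave a call for any member, while over its other alternatives the adjusted p ran from 0.550 to 0.907. Without that mouse 0.761% of all genes passed, and the groups of Cox7a1, Cox7a2l and Ndufs1 did not overlap, as for 2.80% of all genes.

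The summed level of bile duct cell markers was also high in that library. The sum of the 4 marker genes was 92.0 FPKM in treated mouse 5_2 and 7.39 to 16.2 in the other livers, and Krt19 alone had 71.9 against 3.34 to 6.90. In the other treated livers, where Cox7a1 was low, the sum was 7.39 to 15.2 FPKM, against 7.59 to 16.2 in vehicle livers. In the 24 h vehicle liver, normalized separately, the sum was 48.3 FPKM and Cox7a1 had 4.15. None of the 4 was at 0 throughout the 12 livers at 40 days, and their part in the level of Cox7a1 was not tested. For muscle markers, the 6 fast-fibre genes summed to 0.46 FPKM in liver 5_2 and the 6 slow-fibre genes to 1.10. The 12 livers ran from 0.46 to 2.72 and from 0.99 to 2.97, and the part of these genes was not tested either.

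**Figure D2:**
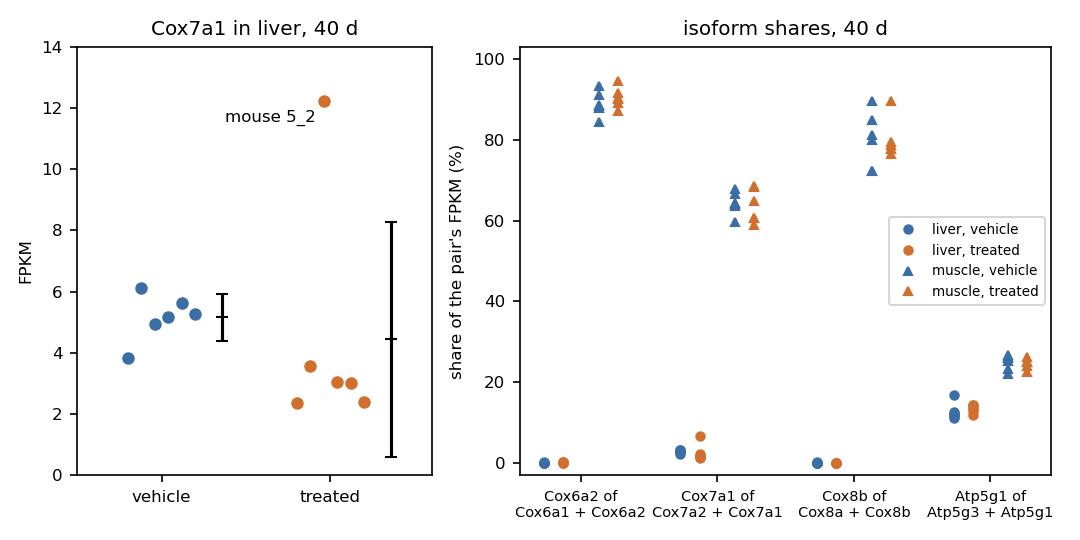
Left, FPKM of Cox7a1 in the 12 livers at 40 d, a point a mouse, with mean and SD at the side of each group: 5 treated livers sit between 2.37 and 3.57, below the vehicle livers, and mouse 5_2 sits at 12.2. Right, share of the second isoform in the summed FPKM of a pair, a point a mouse, in liver (circles) and muscle (triangles).

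Complex V, ATP synthase, had 12 of 16 members lower, with a median of −0.05. Atp5a1, the alpha subunit, had 6.96 to 11.4 FPKM (median 8.95) in vehicle livers and 4.71 to 8.89 (median 7.201) in treated livers, with groups that overlapped. Its log2 fold change was −0.37 ± 0.13 (limma adjusted p = 0.257). Atp5b, the catalytic beta subunit, ran from 331 to 388 FPKM in vehicle livers and from 218 to 348 in treated livers, and differed by −0.24 ± 0.12 (limma adjusted p = 0.389). Across complexes, 17 of 20 core subunits tested and 41 of 53 accessory subunits were lower, with medians of −0.10 and −0.07.

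The members rose and fell together from liver to liver. After the group means were removed, the median correlation between pairs of members over the 12 livers was 0.71 (2926 pairs), and it was 0.71 both for pairs within a complex and for pairs from different complexes. These points share a library and its scaling, so the value is a description. As a mean log2 deviation from the vehicle mean over all members tested, the vehicle livers ran from −0.29 (2_1) to 0.22 (2_3) and the treated livers from −0.44 (5_5) to 0.18 (5_3). The treated liver 5_5 was lowest in every complex, from −0.41 in complex I to −0.58 in complex II. That liver also had the lowest summed level of 4 hepatocyte markers, 20083 FPKM against 27409 to 36742 in the others, and its part in the result was not tested. Without 5_5, 32 of 77 members were lower and the median was 0.01, and without 4_5 and 5_5 together, 28 were lower with a median of 0.03. Of the complexes, only complex II kept a negative median under all 20 alternatives, from −0.19 to −0.02.

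**Figure D3:**
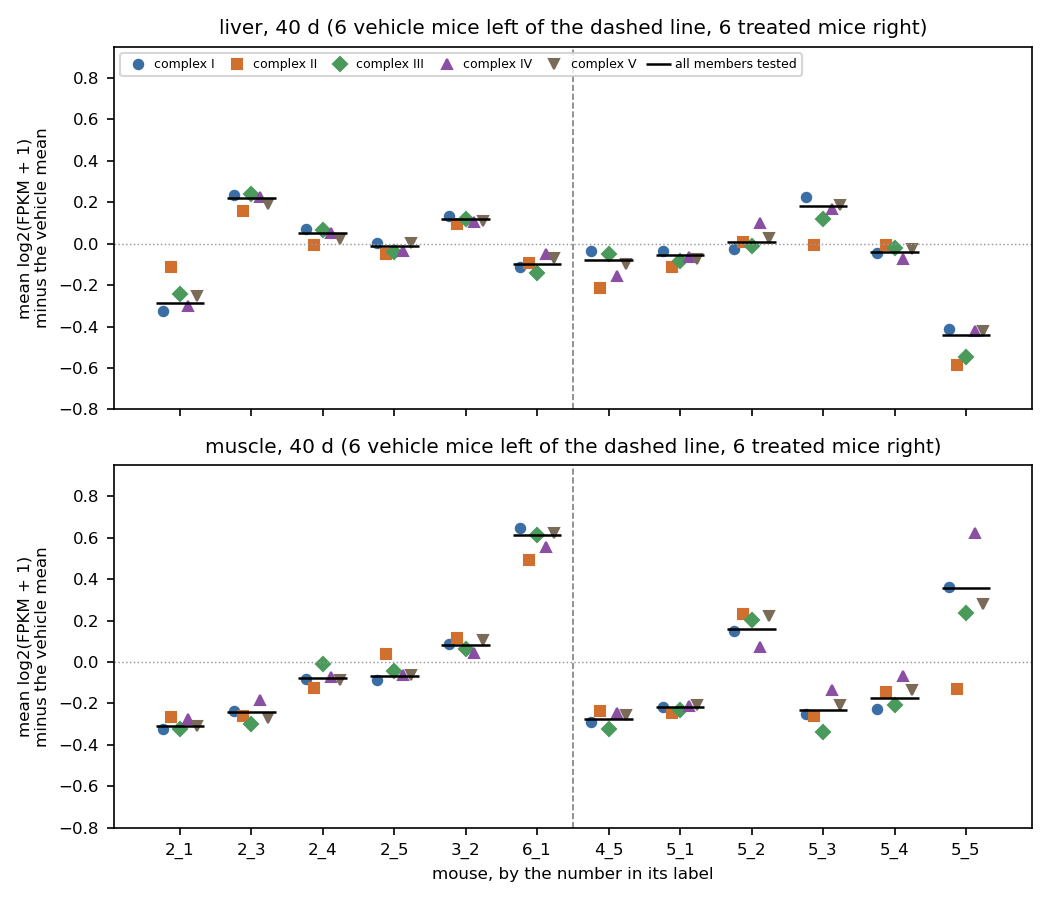
Mean log2(FPKM + 1) of the members tested, minus the mean of the vehicle mice, for each mouse in liver (top) and muscle (bottom) at 40 d, by complex (symbols) and over all members (black line). Complexes move together in nearly every library: liver 5_5 is lowest at −0.44, muscle 6_1 is highest at 0.61, and in muscle 5_5 complex IV (0.62) and complex II (−0.13) part.

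In muscle after 40 days none of the members tested changed by the test either, and the mice of a group differed more among themselves than the groups did. As a mean over all members, treated muscle stood 0.063 below vehicle muscle, with an SD between mice of 0.33 in vehicle and 0.26 in treated mice. Of 80 members tested, 55 had a lower mean in treated mice, with a median log2 fold change of −0.07 (all 11708 genes tested, −0.0036 and 51.4% negative). With each library rescaled to the same FPKM total, 47 members and 38.0% of all genes were negative. By limma, 0 members passed, as for 0% of all genes, and 1 had an unadjusted p under 0.05, against 3.85% of all genes. Both counts were the same with limma voom. No member had groups that did not overlap (0.256% of all genes). The median SD of a member within groups was 0.34 on the log2 scale, against 0.19 over all genes, and in liver these were 0.21 and 0.17.

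Complex I had 28 of 36 members lower in treated muscle, with a median of −0.09. Ndufb2, an accessory subunit listed at a low level, had the smallest p. It ran from 2.13 to 3.62 FPKM (median 2.58) in vehicle muscle and from 1.49 to 2.46 (median 1.90) in treated muscle, with groups that overlapped. The log2 fold change was −0.32 ± 0.11 (limma adjusted p = 0.999). Ndufs1 had 35.5 to 55.4 FPKM (median 42.1) in vehicle and 28.5 to 51.8 (median 36.4) in treated muscle, a difference of −0.21 ± 0.14, and Ndufv1 differed by −0.18 ± 0.18.

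Complex II had all 4 subunits lower, with a median of −0.09. Sdhb had 157 to 311 FPKM (median 194) in vehicle muscle and 142 to 218 (median 156) in treated muscle, and differed by −0.28 ± 0.17. Sdha differed by −0.13 ± 0.14. Complex III had 6 of 9 lower, with a median of −0.13. Cyc1 ran from 192 to 344 FPKM (median 229) in vehicle and from 168 to 268 (median 188) in treated muscle, and 5 of 6 treated muscles lay below every vehicle muscle, with 5_2 above the vehicle median. Its log2 fold change was −0.26 ± 0.15, that of Uqcrc2 −0.24 ± 0.15, that of Uqcrc1 −0.26 ± 0.19 and that of Uqcrfs1 −0.12 ± 0.16 (limma adjusted p = 0.999 for every member named here in muscle).

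Complex V had 10 of 16 lower, with a median of −0.07. Atp5b differed by −0.18 ± 0.14, Atp5a1 by −0.17 ± 0.16 and Atp5s by −0.11 ± 0.10. Complex IV stood at 7 of 15 lower and a median of 0.02, and this median changed sign under 7 of 20 alternatives. Within it Cox4i1 differed by −0.17 ± 0.20 and Cox7c, a small subunit, by 0.15 ± 0.20. Cox7c had 231 to 414 FPKM (median 251) in vehicle and 226 to 522 (median 272) in treated muscle, and without treated mouse 5_5, which had the 522, its difference was −0.0023. Of the core subunits 18 of 20 were lower, with a median of −0.13, and of the accessory subunits 34 of 53, with a median of −0.04.

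The spread between muscles was again shared across members, with a median pairwise correlation of 0.84 over 3160 pairs (0.86 within and 0.84 between complexes). Vehicle mouse 6_1 had the highest deviation, 0.61, followed by treated mice 5_5 (0.36) and 5_2 (0.16), while the other muscles lay between −0.31 and 0.08. The same 3 muscles had the highest summed level of 6 fast-fibre genes, 35697, 32456 and 33130 FPKM, against 20913 to 29031 in the others. Over all genes their summed FPKM was 470508, 402447 and 419170, and 336602 to 407710 in the others. The members made up 4.73%, 4.71% and 3.91% of these totals, and 3.03% to 3.77% in the others. The parts of fibre makeup and of library scaling in the members' levels were not tested. Slow-fibre genes summed to 216 to 1675 FPKM in vehicle and 116 to 1366 in treated muscle and did not follow the same order. Without vehicle mouse 6_1, 25 of 80 members were lower and the median was 0.05, and without treated mouse 5_5, 76 were lower and the median was −0.14.

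Treated muscle 5_5 differed from the others in its makeup. Complex IV stood at 0.62 in it, complex I at 0.36, complex V at 0.28, complex III at 0.24 and complex II at −0.13. Its members with a coding length under the members' median of 409.5 bases averaged 0.55 and the longer ones 0.17, where the other 11 muscles differed by at most 0.17 between the same sets. The 13 mitochondrially encoded subunits summed to 39399 FPKM in it, the lowest of the 12 muscles (52482 to 83250 in the others), and adipocyte markers to 1667 FPKM, the highest. Over all 12 muscles, 38 of 41 longer members were lower in treated mice (median −0.11) and 17 of 39 shorter members (median 0.01). For all genes tested in muscle the medians were −0.01 and 0.03. Without 5_5, 76 of all 80 members were lower in treated muscle. In liver 32 of 40 longer members (median −0.06) and 29 of 37 shorter ones (median −0.08) were lower. The part of coding length in the result was not tested.

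No member's response differed between liver and muscle by the test of the difference itself. Among 77 members tested in both tissues, 47 were lower in treated mice of both, 9 were higher in both, 14 were lower in liver alone and 7 in muscle alone. The same label numbers occur in both tissues, so these counts cannot be taken as coming from separate sets of mice. The difference of the log2 fold changes, muscle minus liver, had a median of −0.01, and 0 members passed (0.0106% of all genes) or had an unadjusted p under 0.05 (5.21% of all genes). The smallest p values were those of Ndufb2 (−0.25 ± 0.13), Cox7a2l (−0.20 ± 0.16), Ndufs8 (−0.23 ± 0.21), Cox7c (0.26 ± 0.25) and Sdha (0.19 ± 0.19), with limma adjusted p = 0.972 or above.

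**Figure D4:**
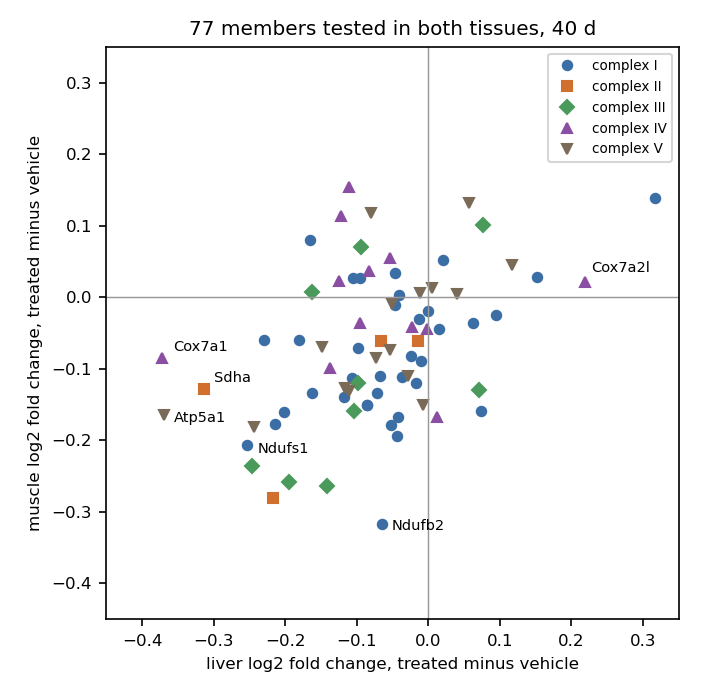
Log2 fold change at 40 d in muscle against liver for the 77 members tested in both tissues, a point a gene, with symbols by complex. Most points (47) lie at the lower left, where both values are negative, and Cox7a2l (0.22 in liver) lies to the right.

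The isoform makeup of the complexes differed widely between the tissues, and no share differed between treated and vehicle mice by the test. In muscle, Cox6a2 made up 89.0% ± 3.1 of the summed FPKM of Cox6a1 and Cox6a2 in vehicle and 90.5% ± 2.5 in treated mice (SD, n = 6), Cox8b 80.0% ± 6.9 and 80.0% ± 4.8 of Cox8a and Cox8b, and Cox7a1 64.4% ± 2.8 and 63.6% ± 4.2 of Cox7a2 and Cox7a1. In liver, Cox6a2 and Cox8b stayed below 0.3% in every library, and Cox7a1 made up 2.90% ± 0.32 in vehicle and 2.50% ± 2.03 in treated mice, with 6.61% in treated mouse 5_2. Cox4i2, the hypoxia-linked isoform of Cox4i1, made up about 1% in muscle (1.08% and 1.17%). Of the genes for subunit c of the ATP synthase ring, whose mature protein is the same, Atp5g1 made up 24.9% and 24.6% beside Atp5g3 in muscle and 12.7% and 13.4% in liver. In 11 exact permutation tests, each over every relabelling of the mice, 0 passed after adjustment, the lowest adjusted p was 0.958, and 0 had an unadjusted p under 0.05, where 0.00216 is the smallest such a test can give.

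Genes that work with the members were compared in the same fits, and none of them passed. Of the 13 subunits encoded by mitochondrial DNA, 11 were lower in treated liver, with a median of −0.30, and 5 had an unadjusted p under 0.05 (13.2% of all genes did). In muscle 12 were lower, with a median of −0.23, and 2 had an unadjusted p under 0.05 (3.85% of all genes). No test compared them with the nuclear members. Their summed level was 34115 to 52428 FPKM in vehicle and 28409 to 34889 in treated livers. Listed levels were uneven: means in vehicle liver were 12177 FPKM for mt-Co1, 100 for mt-Co2, 80.1 for mt-Atp6 and 3.19 for mt-Atp8. In treated livers mt-Co2 ran from 54.4 to 490. The sum thus rests on the highest genes, and the cause of the low values was not tested. Assembly factors, which build the complexes, had 25 of 39 lower in liver (median −0.02) and 27 of 40 in muscle (median −0.04). The electron and nucleotide carriers, such as cytochrome c and the ADP/ATP translocases, had 6 of 8 lower in liver (median −0.11) and 7 of 8 in muscle (median −0.17). Regulators of respiratory genes had 3 of 8 tested lower in liver (median 0.02) and 6 of 11 in muscle (median −0.0020). Of the uncoupling proteins, Ucp2 differed by 0.08 ± 0.16 in liver and Ucp3 by −0.52 ± 0.52 in muscle, with 25.1 to 152 FPKM in vehicle and 16.4 to 137 in treated mice, and Ucp2 by −0.19 ± 0.17 in muscle.

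The tissues were checked against their markers. Hepatocyte genes summed to 20083 to 36742 FPKM in liver and to 2.16 to 144 in muscle, and fast-fibre genes summed to 20913 to 35697 in muscle and to at most 2.72 in liver. The lowest liver of the hepatocyte markers was treated mouse 5_5 and the highest muscle was vehicle mouse 3_2. In treated livers the neutrophil markers were higher (28.8 to 443 FPKM, against 10.8 to 18.0 in vehicle livers), and treated mouse 4_5 had the highest macrophage sum, 1050 FPKM against 317 to 463. Their part in the members' values was not tested.

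After 24 h there was 1 library a group and tissue, so differences have no replicate check, and they compare those libraries. In liver 74 of 77 members with a mean of at least 1 FPKM were higher in the treated library and 3 lower, with a median log2 ratio of 0.20 (all genes, 0.04 and 41.7% negative). The summed FPKM of the treated library was itself larger, 490366 against 442388. After both libraries were rescaled to one total, 52 of 80 members were higher and the median was 0.05, with −0.10 over all genes, so that the members stood 0.16 above all genes before and 0.15 after. By complex the medians were 0.20, 0.15, 0.34, 0.21 and 0.19 from I to V. Before rescaling, 3 of the 77 members were past 1.5-fold on the log2(FPKM + 1) scale, where 5.59% of all genes were. This scale shrinks ratios of low genes, and Uqcrc1 (1.10 and 1.97 FPKM, log2 ratio 0.50) was not counted.

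Among members with at least 5 FPKM, the highest liver ratios were those of Ndufb6 and Ndufa1, accessory subunits of complex I, and Uqcr11, a small subunit of complex III. Ndufb6 went from 63.7 to 101 FPKM (681 and 939 reads) and Ndufa1 from 99.8 to 155 (678 and 912 reads), and Uqcr11 from 173 to 258. The lowest were Atp5l (21.2 and 20.3 FPKM), Ndufs1 (17.1 and 17.0) and Ndufa11 (23.3 and 23.7). The third member past 1.5-fold was Cox7a1, named for its value, with 4.15 FPKM (36 reads) in the vehicle and 1.72 (13 reads) in the treated liver. The ratio was 0.416, with an exact 95% interval of 0.202 to 0.802 that covers counting error only. Several marker sums differed in this pair of livers. Lower in the treated liver were red cell (338 against 647 FPKM), fibroblast (192 against 285) and bile duct markers (32.7 against 48.3). Higher were hepatocyte (38353 against 31043), macrophage (326 against 288) and neutrophil markers (35.8 against 26.1). Their part was not tested.

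In muscle 60 of 80 members were higher in the treated library, with a median log2 ratio of 0.11 (all genes, −0.02 and 53.4% negative), and 2 were past 1.5-fold, against 11.3% of all genes. Both were the widely expressed isoforms of complex IV. Cox6a1 went from 178 to 321 FPKM (ratio 1.80, exact 95% interval 1.71 to 1.91) and Cox8a from 214 to 357 (1.67, 1.57 to 1.77). Their muscle counterparts went from 1089 to 982 FPKM (Cox6a2) and from 801 to 784 (Cox8b). The share of Cox6a2 was thus 86.0% and 75.4%, and that of Cox8b 78.9% and 68.7%. The 12 muscles at 40 days ran from 84.3% to 94.6% and from 72.2% to 89.6%. These ranges are no reference for the 24 h muscles, which also differed from them in fibre markers. Slow-fibre genes summed to 2.84 and 11.8 FPKM at 24 h and to 116 to 1675 FPKM at 40 days. Sdhb stood at 0.41, and the lowest ratios were those of Ndufa4l2 (−0.27), Ndufa12 (−0.23) and Atp5g2 (−0.17).

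The pair of 24 h muscle libraries also differed in fibre and cell markers. Fast-fibre genes summed to 28777 FPKM in the vehicle and 17541 in the treated library, slow-fibre genes to 2.84 and 11.8, adipocyte genes to 1281 and 2685, and hepatocyte genes to 106 and 5.74. Of the 13 mitochondrially encoded subunits, 9 were past 1.5-fold upwards, with a median of 0.64. Their part in the values of the members was not tested.

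**Figure D5:**
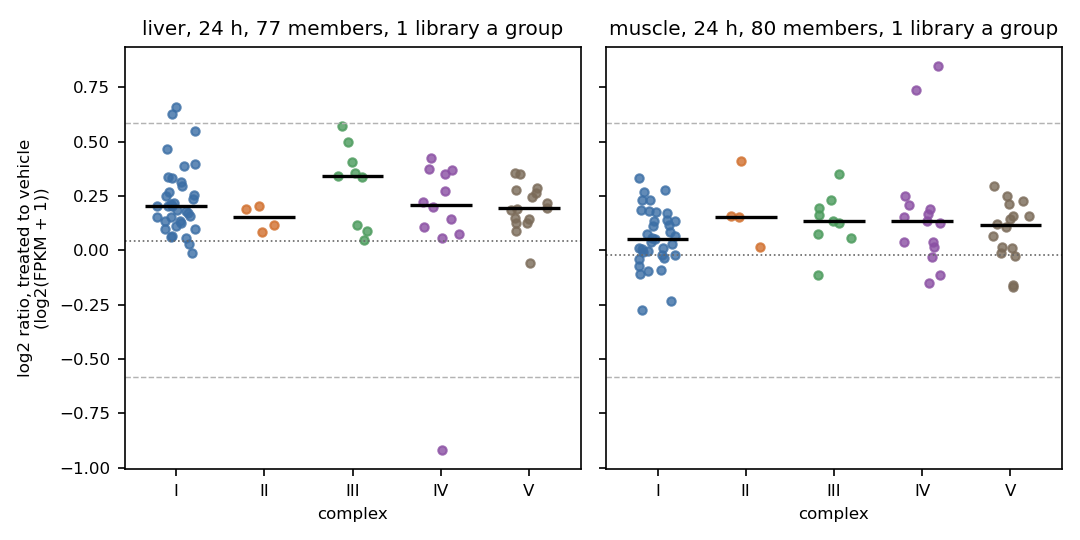
Log2 ratio of the treated to the vehicle library after 24 h for each member with a mean of at least 1 FPKM, by complex, in liver (left) and muscle (right). Black bars are medians of the complex, the dotted line is the median of all genes and dashed lines mark 1.5-fold: Cox7a1 (−0.92) is the low point of liver, and Cox6a1 (0.85) and Cox8a (0.74) are the high points of muscle.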

How the data were processed

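Values are FPKM per gene as the authors deposited them, in 3 tables (liver and muscle at 40 d, 24 h). The submitters' processing notes name the builds GRCm38 and mm10, with aligner, counter and strand setting not given in the sources used here. Per the labels' protocols, RNA was extracted with Trizol and the library kit was NEBNext Ultra. The values are whole multiples of 1 read in each library (100% of values under 500 reads, tolerance 0.01), so reads were recovered for depth and for the voom alternative.

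For each tissue at 40 d, log2(FPKM + 1) was fitted with limma 3.58.1 (trend, R 4.3.3) for 6 against 6 mice, over genes that reached 1 FPKM in 6 or more of the 12 libraries, with Benjamini-Hochberg adjustment over all of them. Fold changes on this scale understate those of low genes. The difference between tissues was an interaction term over 24 libraries. Isoform shares had two-sided exact permutation tests, and 24 h values had no test. The code was tested on simulated data. Tables were normalized separately, so levels set beside each other across tables are descriptions. All 84 members had a coding length in the annotation (GENCODE, GRCm38), and 7 pseudogenes with matching symbols were left out.

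The genes named at 40 d were the 2 with the smallest p per complex and tissue, a fixed set of core subunits, and both isoforms of pairs, and at 24 h the 3 highest and 3 lowest members of at least 5 FPKM. Ndufa12 in liver, Krt19 and Cox7a1 at 24 h were named after their values were seen. The members and lists were chosen with earlier results of these data known. Alternatives were a pseudocount of 0.1, no filter, other scalings, voom, each mouse left out, mice 4_5 and 5_5 left out, all 24 libraries in 1 fit, a replicate block, and subunits alone.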

Additional observations from a re-analysis of the deposited data

Results flagged for a closer look

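In 86 groups of 6 mice, the highest or lowest value was looked at for its distance from the rest, and 18 stood apart. Chance flags about 1 in 20 such groups, and members share their libraries, so these are not separate events. In treated livers, mouse 5_5 stood low in the score of complex III (−0.55, others −0.08 to 0.12) and in Sdhb (55.8 FPKM), and high in the share of Ndufa4l2 beside Ndufa4 (1.72%) and of Atp5g2 beside Atp5g3 (31.2%). Treated liver 5_2 stood high in Cox7a1 (12.2 FPKM) and in its share (6.61%), and treated liver 5_3 in Cox7a2l (153 FPKM, others 123 to 133). Vehicle liver 2_1 stood high in the share of Atp5g1 (16.8%, others up to 12.7%).

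In treated muscles, mouse 5_2 stood high in the score of complex II (0.23), in Sdha (271 FPKM), Cyc1 (268), Uqcrc2 (188) and Atp5b (834), and in the share of Cox8b (89.6%). Treated muscle 5_5 stood high in the score of complex IV (0.62). Vehicle muscle 6_1 stood high in Cyc1 (344 FPKM), Cox4i1 (766) and Cox7c (414).

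Outside the members, the gene model on an alternate contig at the place of Ndufs3 had reads where Ndufs3 itself was listed at or near 0. In liver its mean was 7.75 FPKM for vehicle mice and 14.4 for treated mice, and in muscle 15.6 and 9.88, with ranges from 1.15 to 29.0 in liver and from 2.41 to 35.8 in muscle, so the groups overlapped in both tissues.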

How the results depend on the processing

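The count of called members was 0 in both tissues and for the tissue difference under all alternatives run, except that it ranged from 0 to 1 in liver with single mice left out (1, Cox7a1, without treated mouse 5_2). The count at unadjusted p under 0.05 in liver (5) was 8 with libraries rescaled to equal FPKM totals, 2 without mice 4_5 and 5_5 together and 3 with all 24 libraries in 1 fit. In muscle (1) it ranged from 1 to 4 with single mice left out (4 without treated mouse 5_2, 2 without vehicle 2_1 or treated 5_5) and was 2 without 4_5 and 5_5. For the tissue difference (0) it ranged from 0 to 1, with 1 when mouse 2_1, 5_2 or 5_5 was left out. The number of members with a negative value, a count chosen after seeing the data, ranged from 32 to 70 in liver and from 25 to 76 in muscle with single mice left out, and was 28 in liver without 4_5 and 5_5 together. Among named genes, Cyc1 in liver turned to 0.039 without 4_5 and 5_5 together, and Cox7c in muscle ranged from −0.0023 to 0.27 with single mice left out. The medians of 24 h liver after the same rescaling were 0.053 over all members and 0.057, 0.0056, 0.19, 0.051 and 0.046 for complexes I to V. In all, 409 recomputed summary values and 538 values of named genes kept their direction and side of the threshold.

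The main test of the tissue difference treated the 24 libraries as separate, and the labels do not state that equal numbers are the same mouse. Over 12 numbers, the correlation of liver and muscle deviations ran from −0.08 to 0.45 and was over 0.1 in 7. For 7 of the 12 livers, the muscle of the same number was the best match within its group of 6. With a replicate block the tissue difference kept 0 called members and a median of −0.01. Depth limits short members at a few FPKM, such as Cox7a1 in liver with 24 to 123 reads a library.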
